A study of Mus musculus with 4 samples.

Results

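The 10 genes described here are Fkbp5, Tsc22d3, Sgk1, Zbtb16, Klf9, Nr3c1, Mt1, Mt2, Cdkn1a and Hsd11b1, a set of glucocorticoid-responsive and metallothionein genes. They were listed by symbol, with earlier results of these data known, and all 10 are in the table of 24421 genes. Expression was measured by polyA RNA-seq in 4 C57BL/6 mice aged 8 weeks, 1 library for each mouse. Mice WT-139 and WT-140 carried an intact Usp25 gene (Usp25+/+), and mice KO-826 and KO-850 lacked it (Usp25-/-). Every mouse, control or knockout, had been given 2.5% dextran sulfate sodium (DSS), a polymer that injures the gut lining and induces colitis, for 5 days and then plain water for 2 days. No mouse without DSS and no mouse given a glucocorticoid is among them, so the values describe levels after DSS in both genotypes. The labels do not say how the Usp25 allele was made, whether the mice were littermates, or at what hour tissue was taken. Usp25 encodes a deubiquitinating enzyme, and the comparison asks how transcript levels after DSS differ in its absence.

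Glucocorticoids, in mice mainly corticosterone, enter cells and bind the glucocorticoid receptor, which is encoded by Nr3c1. The receptor waits in the cytoplasm in a complex with heat shock protein 90 and co-chaperones, moves to the nucleus on binding hormone, and raises or lowers the transcription of many genes, among them genes that restrain inflammation and genes that dampen the receptor itself. Metallothioneins are small cysteine-rich proteins that bind zinc and copper, and their genes are induced by metal through the factor MTF1 and also by glucocorticoids and by oxidative and inflammatory stress. In the intestine and the lung, glucocorticoids are known both as a brake on inflammation and as a signal to the epithelium.

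The libraries are labelled as colon, but the defining transcripts of that tissue were mostly absent. Of 13 genes of colon epithelium and muscle, 10 stayed below 1 FPKM (a level corrected for transcript length and for library size) in all 4 mice, and between 3 and 7 were listed at 0 in each mouse. The others were Vil1 and Des, which reached 1.46 and 1.45 FPKM, and Lgals4. Lgals4 was at 7.04 and 9.83 FPKM in the Usp25+/+ mice and at 70.6 and 28.8 FPKM in the Usp25-/- mice. All 10 lung epithelium genes were measured in every mouse, with a summed level of 2323 to 5338 FPKM, so the tissue is named below only by its label. Mouse WT-139 stood apart, with a correlation of 0.876 to 0.890 with the other libraries over the tested genes, against 0.933 to 0.968 among those. In the whole table it had 3862 genes listed at 0, against 8813 in mouse WT-140, 7175 in KO-826 and 8612 in KO-850. Low values found in mouse WT-139 alone are to be read beside this. Of 10 neutrophil markers 9 are in the table, and their summed level was 40471 FPKM in mouse WT-139 against 713 FPKM in mouse WT-140, 1993 FPKM in mouse KO-826 and 1182 FPKM in mouse KO-850. Usp25 itself was at 38.5 and 16.6 FPKM in the controls and at 2.65 and 1.71 FPKM in the knockouts, so each library matched its genotype label.

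The regulatory sequence in front of Mt1, Mt2 and Sgk1 is shown because these genes carry, in the window around an annotated start, the motifs through which the set is classically described. Windows of 300 bases, from 250 before to 50 after a start, were taken from RefSeq (GRCm38.p6), and the 3 printed here were placed by exact match in mm9. Windows of 8 of the 10 genes were searched, 16 in all, and none of Nr3c1 and Zbtb16 was used here. Capitals mark the metal response element core, TGCACNC or TGCGCNC on either strand, in the metallothionein genes, and the palindromic glucocorticoid response element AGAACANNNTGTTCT in Sgk1. The windows lie on the plus strand at chr8:96702739-96703038 (Mt1), chr8:96696268-96696567 (Mt2) and chr10:21713446-21713745 (Sgk1).
Mt1: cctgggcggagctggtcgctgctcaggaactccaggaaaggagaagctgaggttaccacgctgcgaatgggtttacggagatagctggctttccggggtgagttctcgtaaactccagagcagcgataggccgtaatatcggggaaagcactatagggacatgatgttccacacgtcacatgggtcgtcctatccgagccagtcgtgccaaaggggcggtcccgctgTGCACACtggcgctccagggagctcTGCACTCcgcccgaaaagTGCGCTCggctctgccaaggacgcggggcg
Mt2: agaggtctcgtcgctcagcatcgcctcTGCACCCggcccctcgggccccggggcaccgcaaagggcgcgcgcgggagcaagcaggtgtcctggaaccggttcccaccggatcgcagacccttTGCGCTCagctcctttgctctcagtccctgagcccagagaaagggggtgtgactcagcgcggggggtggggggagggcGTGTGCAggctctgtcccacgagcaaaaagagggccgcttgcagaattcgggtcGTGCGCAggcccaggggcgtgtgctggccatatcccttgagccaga
Sgk1: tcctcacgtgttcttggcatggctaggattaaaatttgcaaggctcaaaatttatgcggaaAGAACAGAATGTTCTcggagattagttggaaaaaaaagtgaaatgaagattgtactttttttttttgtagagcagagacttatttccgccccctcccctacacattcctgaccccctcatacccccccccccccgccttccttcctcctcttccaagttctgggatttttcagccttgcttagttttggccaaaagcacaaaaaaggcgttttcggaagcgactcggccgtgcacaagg

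The Mt1 window holds 3 metal response element cores, at -23, 2 and 20 bases from the annotated start, and the Mt2 window holds 4, at -223, -128, -50 and 4 bases. Among all 32851 RefSeq windows of this length, 25.7% hold at least 1 such core and 1.97% hold 3 or more. The full glucocorticoid response element is in 3 of the 32851 windows, and 1 of those 3 belongs to Sgk1. Sgk1 has 6 annotated starts with a window each, and the element lies at -189 bases from the start shown. The shorter core AGAACA, which lies inside the full element, was found in windows of Sgk1 and Tsc22d3, and in 19.0% of all windows. A metal response element core was also in 1 window of Sgk1 and in that of Hsd11b1. These letters describe the windows only, and no binding was measured in these samples.

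Because Mt1 and Mt2 are close relatives, their coding sequences were compared to see whether reads of one could be counted for the other. Both have 186 coding bases in the Gencode annotation of mm9, of which 148 are identical (79.6%), with the 38 that differ in capitals.
Mt1 coding sequence: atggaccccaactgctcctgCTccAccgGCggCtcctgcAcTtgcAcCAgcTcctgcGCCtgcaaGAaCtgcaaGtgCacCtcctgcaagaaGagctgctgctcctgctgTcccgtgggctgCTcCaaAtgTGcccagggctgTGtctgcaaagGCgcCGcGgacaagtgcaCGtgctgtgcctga
Mt2 coding sequence: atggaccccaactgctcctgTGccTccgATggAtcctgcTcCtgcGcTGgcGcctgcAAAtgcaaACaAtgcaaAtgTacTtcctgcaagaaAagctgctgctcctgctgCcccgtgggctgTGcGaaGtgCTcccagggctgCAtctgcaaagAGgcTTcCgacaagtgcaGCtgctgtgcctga
No exon of the 10 genes overlaps an exon of another gene in that annotation, and the longest run shared by the Mt1 and Mt2 transcripts compared was 20 bases. The differing bases are spread along the whole coding sequence. The sources used here give neither the read length nor the handling of reads with several matches, so some exchange of signal between the pair cannot be measured.

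Per length, the metallothioneins, Sgk1 and Cdkn1a were among the most abundant transcripts, and Zbtb16 was low. Averaged on the log2(FPKM + 1) scale, the order from high to low was Mt1, Sgk1, Mt2, Cdkn1a, Tsc22d3, Fkbp5, Nr3c1, Hsd11b1, Klf9 and Zbtb16. Mt1, the highest, exceeded 98.4% to 99.6% of the 12103 tested genes, depending on the mouse, and Fkbp5 exceeded 79.6% to 88.5% of them. The order of the first 4 genes was not stable, since Mt1 was above Sgk1 in 3 of 4 mice, Sgk1 above Mt2 in 2 of 4 and Mt2 above Cdkn1a in 3 of 4. The steps from Cdkn1a to Tsc22d3, from Tsc22d3 to Fkbp5, from Fkbp5 to Nr3c1 and from Klf9 to Zbtb16 held in all 4 mice. Nr3c1, Hsd11b1 and Klf9 were not separated from each other, with mean log2 level differences between neighbours of 0.01 ± 0.62 and 0.25 ± 0.88 (SD, n = 4). Hsd11b1 was above Klf9 in 2 of 4 mice.

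**Figure D1:**
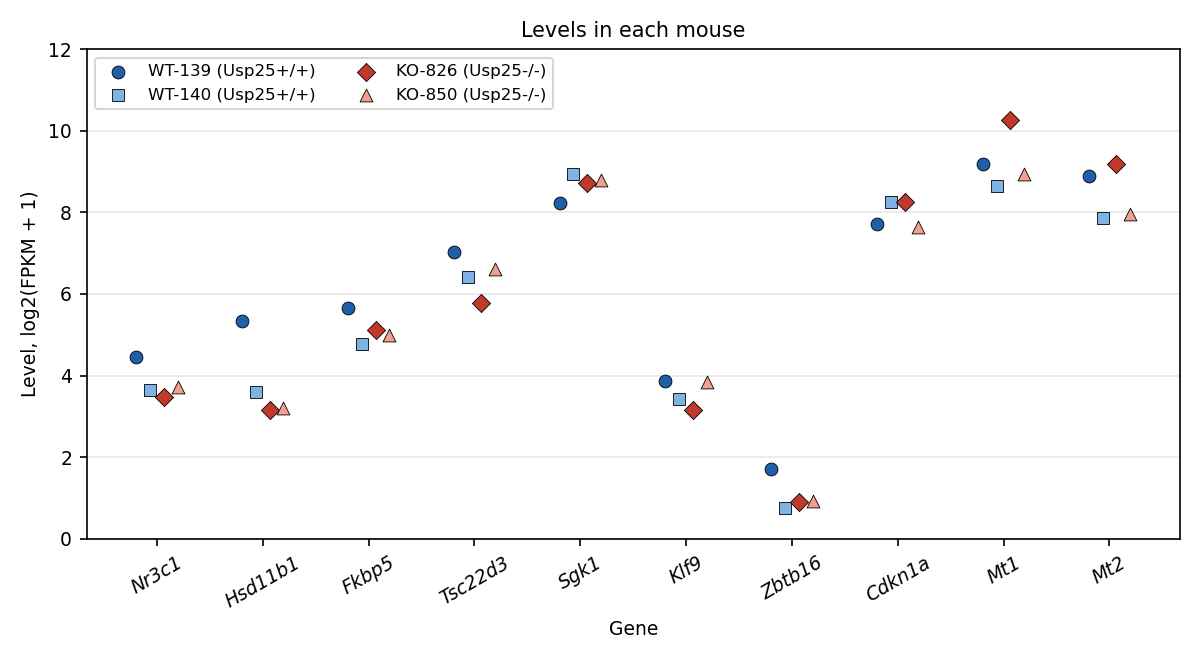
The vertical axis gives the level of the 10 genes as log2(FPKM + 1) and the horizontal axis the genes ordered by role, each mouse having its own symbol. The Usp25+/+ and Usp25-/- points overlap for each gene except Hsd11b1, and Zbtb16 reaches only 2.25 FPKM.

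The receptor gene Nr3c1 was measured at 20.9 FPKM in mouse WT-139, 11.5 FPKM in mouse WT-140, 10.2 FPKM in mouse KO-826 and 12.3 FPKM in mouse KO-850, and pairs of values below keep this order, first the mice with Usp25 and then those without it. Mouse WT-139 was high, the other 3 mice lay close together, and the genotypes overlapped. The means were 16.2 ± 6.67 and 11.2 ± 1.48 FPKM (SD, n = 2), a difference of -0.44 ± 0.38 (SE) in Usp25-/- relative to Usp25+/+ on the log2(FPKM + 1) scale. Limma, fitted across all 12103 tested genes, gave it a Benjamini-Hochberg adjusted p = 0.968. Without mouse WT-139 the log2 difference was -0.03. Bulk RNA does not tell fewer cells that make a transcript from less transcript in each cell, here or for the genes below.

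Hsd11b1 encodes the reductase of the endoplasmic reticulum that turns inactive 11-dehydrocorticosterone into active corticosterone, and so sets hormone supply inside the cell. The gene lies on chromosome 1 from 195047824 to 195090248 on the minus strand (mm9). It was at 39.2 and 11.1 FPKM with Usp25 and at 7.86 and 8.18 FPKM without it. It was the 1 gene of the 9 tested whose genotypes did not overlap, with mouse WT-139 far above the other mice and mouse WT-140 slightly above both Usp25-/- mice. The means were 25.2 ± 19.9 against 8.02 ± 0.226 FPKM (SD, n = 2), and the log2 difference of -1.29 ± 0.60 (SE) did not pass limma (adjusted p = 0.968). Its 95% interval as a fold, Usp25-/- over Usp25+/+, ran from 0.143 to 1.17. Leaving out mouse WT-139 brought the log2 difference to -0.43. Leaving out mouse WT-140 brought it to -2.16 with limma's adjusted p = 0.0476, which leaves mouse WT-139 as the lone Usp25+/+ mouse and assumes that it varied like the Usp25-/- mice, and adjusted p over all alternatives ran from 0.0476 to 1. In that fit 1.27% of all genes were called lower. Of all genes tested, 14.7% had non-overlapping genotypes with lower values in Usp25-/-. The neutrophil markers named above were high in the same mouse, and their part in the Hsd11b1 value was not tested. H6pd, whose enzyme supplies the cofactor for this reaction, was at 11.1 and 8.03 FPKM with Usp25 and at 7.17 and 7.42 FPKM without it. Hsd11b2, which inactivates corticosterone, did not exceed 1.92 FPKM and was above 1 FPKM in mouse WT-139 alone.

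Fkbp5 encodes a co-chaperone that lowers the receptor's affinity for hormone and is itself induced by the receptor, a feedback loop, and lies on chromosome 17 from 28536040 to 28654469 on the minus strand (mm9). Its levels were 49.7 and 26.5 FPKM with Usp25 and 33.9 and 31.1 FPKM without it. Both Usp25-/- values lay between the Usp25+/+ values. The log2 difference was -0.16 ± 0.39 (SE, limma adjusted p = 0.979), with a 95% interval of 0.453 to 1.78 as a fold. It turned to 0.28 without mouse WT-139.

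Tsc22d3, also known as GILZ, encodes a leucine zipper protein that restrains NF-kappaB and AP-1, and lies on chromosome X from 137074067 to 137135198 on the minus strand (mm9). It was at 129 and 83.7 FPKM with Usp25 and at 53.7 and 97.5 FPKM without it. The highest value was in mouse WT-139 and the lowest in mouse KO-826, while mouse WT-140 lay below mouse KO-850, so the genotypes overlapped. The log2 difference was -0.51 ± 0.43 (SE, limma adjusted p = 0.968), and it was -0.21 without mouse WT-139 and -0.09 without mouse KO-826.

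Sgk1 encodes a serine/threonine kinase that promotes epithelial sodium uptake and cell survival, and lies on chromosome 10 from 21601990 to 21719709 on the plus strand (mm9). Its levels were 298 and 492 FPKM with Usp25 and 422 and 442 FPKM without it. Here mouse WT-139 was the lowest, and the Usp25-/- values again lay between the Usp25+/+ values. The log2 difference of 0.17 ± 0.40 (SE, limma adjusted p = 0.979) turned to -0.19 without mouse WT-139. Among the 3 other mice the level was 452 ± 36.0 FPKM (SD, n = 3).

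Klf9 and Zbtb16 encode zinc finger transcription factors that are induced by glucocorticoids in many cell types. Klf9 lies on chromosome 19 from 23215716 to 23241401 on the plus strand (mm9) and Zbtb16 on chromosome 9 from 48462416 to 48644050 on the minus strand (mm9). Klf9 was at 13.6 and 9.71 FPKM with Usp25 and at 7.89 and 13.3 FPKM without it, so 1 mouse of each genotype was high and 1 was low. Its log2 difference was -0.15 ± 0.37 (SE, limma adjusted p = 0.979), and it became 0.07 without mouse WT-139 and 0.19 without mouse KO-826. Zbtb16 was at 2.25 and 0.675 FPKM with Usp25 and at 0.860 and 0.906 FPKM without it. It reached 1 FPKM in a single mouse, WT-139, and was not tested, because a gene had to reach 1 FPKM in at least 2 mice. Its mean log2 difference of -0.31 became 0.17 without mouse WT-139.

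Cdkn1a encodes p21, an inhibitor of cyclin-dependent kinases that is raised by p53 and, in several cell types, by glucocorticoids. It lies on chromosome 17 from 29227924 to 29237667 on the plus strand (mm9). Its levels were 209.7 and 303 FPKM with Usp25 and 304 and 199.9 FPKM without it. Each genotype held 1 higher and 1 lower mouse, and the means of 256 ± 65.8 and 252 ± 73.7 FPKM (SD, n = 2) nearly coincided. The log2 difference was -0.03 ± 0.40 (SE, limma adjusted p = 0.998), with a 95% interval of 0.482 to 1.99 as a fold. It turned to 0.23 without mouse WT-140 and to 0.27 without mouse KO-850.

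Mt1 and Mt2 encode the widely expressed metallothioneins and lie next to each other on chromosome 8 in mm9, Mt2 from 96696518 to 96697467 and Mt1 from 96702989 to 96704225, both on the plus strand. Mt1 was at 580.4 and 402 FPKM with Usp25 and at 1226 and 491 FPKM without it. Mt2 was at 475 and 233 FPKM with Usp25 and at 581 and 247 FPKM without it. For both genes mouse KO-826 was the highest, mouse WT-139 the second, mouse KO-850 the third and mouse WT-140 the lowest, so the genotypes overlapped. The log2 difference was 0.68 ± 0.56 (SE, limma adjusted p = 0.968) for Mt1, with a 95% interval of 0.597 to 4.31 as a fold. For Mt2 it was 0.19 ± 0.59 (SE, limma adjusted p = 0.984). The Mt1 difference rested on mouse KO-826, without which it was 0.02, and the Mt2 difference turned to -0.43 in the same step and to -0.32 without mouse WT-140. Within the Usp25-/- group, mouse KO-826 had 2.50 times the Mt1 level and 2.35 times the Mt2 level of mouse KO-850.

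The balance of the pair differed between mice by less than the levels did. The ratio of Mt1 to Mt2 in FPKM was 1.22 in mouse WT-139 and 1.73 in mouse WT-140, and 2.11 in mouse KO-826 and 1.99 in mouse KO-850. Both Usp25-/- ratios were above both Usp25+/+ ratios, with means of 2.05 ± 0.0875 and 1.47 ± 0.356 (SD, n = 2). With 2 mice against 2, an exact two-sided permutation test cannot go below p = 0.333, so this separation was not tested further, and the lowest ratio was again that of mouse WT-139. Mt3, the metallothionein known from the brain, did not exceed 1.24 FPKM, and Mt4, known from stratified epithelium, was listed at 0 in all 4 mice.

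**Figure D2:**
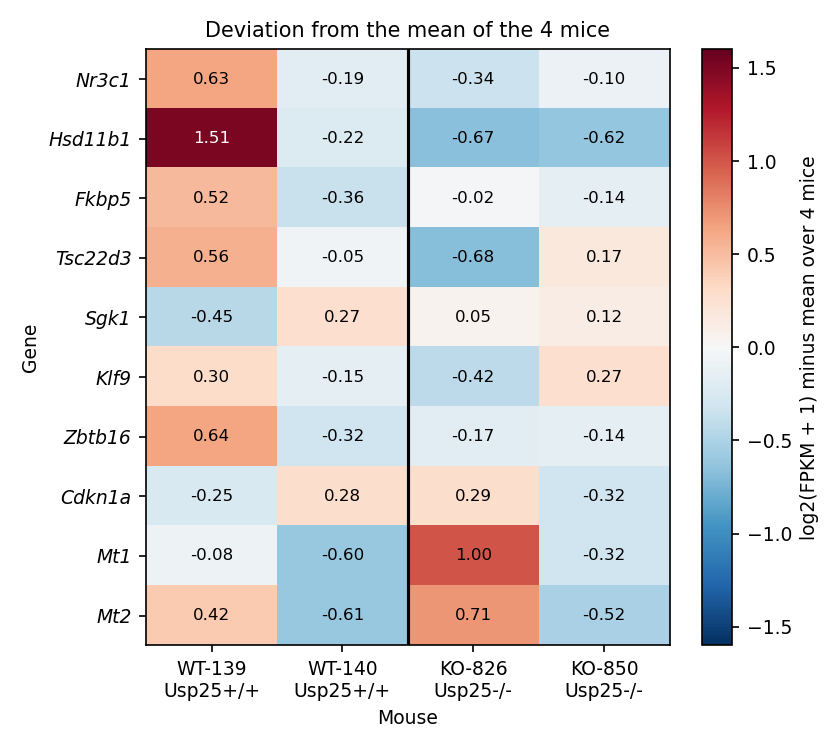
Level of each gene in each mouse as log2(FPKM + 1) minus the mean of that gene over the 4 mice, with mice along the horizontal axis and genes along the vertical axis, red for above and blue for below the mean. Mouse WT-139 is above the mean for Nr3c1, Hsd11b1, Fkbp5, Tsc22d3, Klf9, Zbtb16 and Mt2, and mouse KO-826 is highest for Mt1, at 1.00, and for Mt2, at 0.71.

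Across the set, the extreme values were shared out among single mice. Mouse WT-139 had the highest value for Nr3c1, Hsd11b1, Fkbp5, Tsc22d3, Klf9 and Zbtb16, and the lowest for Sgk1. Among the 9 tested genes it was the highest for 5, mouse KO-826 for 3 and mouse WT-140 for 1, while over all tested genes mouse WT-139 was the highest for 29.7% and mouse KO-826 for 25.5%. The ratio of the highest to the lowest mouse ran from 1.52 for Cdkn1a to 4.99 for Hsd11b1, with a median of 2.05 over the 9 tested genes against 1.94 over all 12103 tested genes. The median spread of these genes was thus close to that over all tested genes, which were not matched to them in level. The summed neutrophil markers were highest in mouse WT-139 too. Of 12 macrophage markers listed, 9 are in the table, and mouse WT-139 was the highest for 3 of them, Adgre1, Marco and Csf1r. Their summed level was 7347 FPKM in that mouse against 7584 to 10721 FPKM in the others, most of it from Chil3, at 6219 FPKM in that mouse, and their median there, 142 FPKM, lay within the 140 to 193 FPKM of the other mice. The part of either cell type in these values was not tested.

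No gene of the set passed the test between genotypes. At a threshold of 0.05 on the Benjamini-Hochberg adjusted p over the whole table, limma called 0 of these 9, and it called 0% of all 12103 genes. At an unadjusted p under 0.05 it gave 0 of the 9 and 3.3% of all genes, and the smallest unadjusted p in the set was 0.0810, for Hsd11b1. Usp25 itself, with a log2 difference of -3.07, was not called by limma either (adjusted p = 0.968). No other tool was run. The log2 difference was positive for 3 of the 9 genes, Mt1, Mt2 and Sgk1, and negative for 6, and 53.6% of all tested genes were positive. The median log2 difference was -0.15 over the 9 genes and 0.03 over all tested genes. Genotypes did not overlap for 1 of the 9, against 33.7% of all genes in either direction. With a mouse left out, they did not overlap for 5 of the 9 without mouse WT-139, 6 without mouse WT-140, 2 without mouse KO-826 and 7 without mouse KO-850, against 73%, 80.9%, 52.9% and 60.7% of all genes in those fits. The share was thus lower than that of all genes in the first 3 of these fits and higher in the last. Without mouse WT-139 the log2 difference was positive for 4 of the 9 genes and for 48.5% of all genes. The 95% intervals of all 9 genes included no difference, and each also included a change of more than 1.5-fold in at least 1 direction, so the data do not show that these genes were alike in the genotypes.

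**Figure D3:**
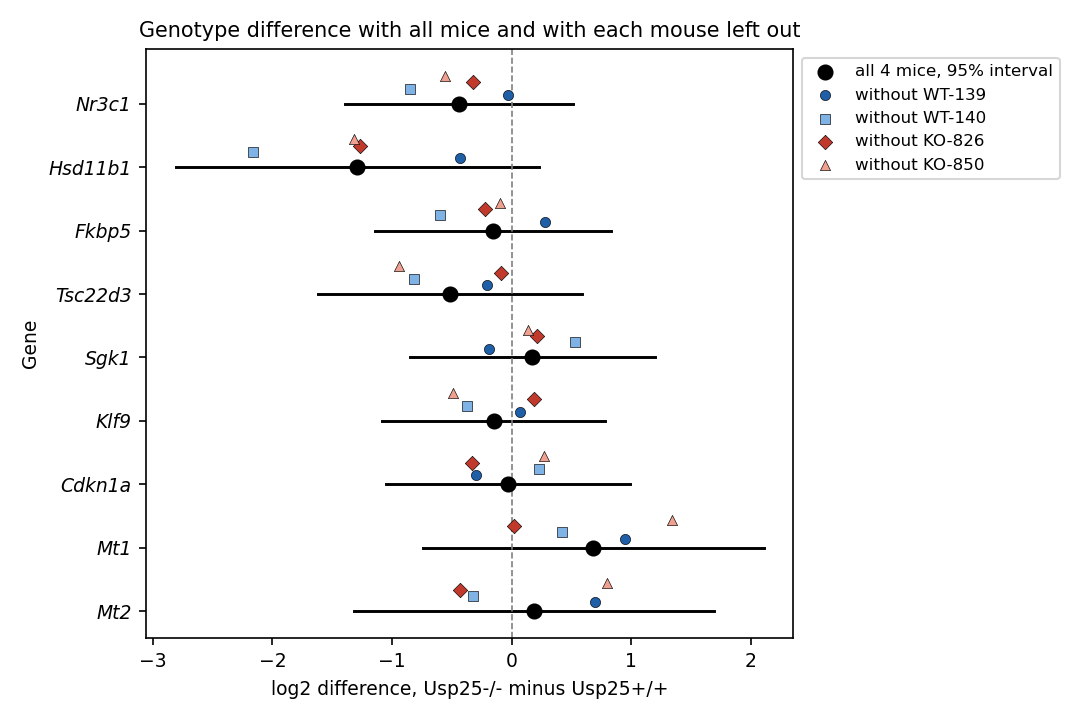
Difference between genotypes on the log2(FPKM + 1) scale, Usp25-/- minus Usp25+/+, on the horizontal axis for the 9 tested genes on the vertical axis, with black points and 95% limma intervals for all 4 mice and coloured points for the fits that leave out 1 mouse. All 9 intervals cross 0, and leaving out mouse WT-139 moves Hsd11b1 from -1.29 to -0.43 and Fkbp5 from -0.16 to 0.28.

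To place each gene beside the rest of the transcriptome, the tested genes whose deviations from their own mean were closest over the 4 mice were looked up, by the root mean square difference on the log2(FPKM + 1) scale. This likeness rests on 4 values for each gene, and with 12103 genes close matches are frequent. Sgk1 was closest to Mrps9 and B4galnt1, at distances of 0.0124 and 0.0140. Fkbp5 was closest to Donson and Mbtd1 (0.0110 and 0.0117), Nr3c1 to Stk4 and Slc40a1 (0.0184 and 0.0214), and Klf9 to Nsmaf and Kbtbd4 (0.0197 and 0.0317). Cdkn1a was closest to Abcb1a and B3gat2 (0.0144 and 0.0484), Tsc22d3 to Cmah (0.0435), and Hsd11b1 to Samd9l and Ccdc88b (0.0486 and 0.0705). Samd9l was at 33.1 and 9.33 FPKM with Usp25 and at 6.09 and 6.26 FPKM without it. Mt1 was closest to AF357359 and Ap1m2 (0.0574 and 0.0794), and Mt2 to Fam110c and Sprr2b (0.0556 and 0.0634).

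Within the set, the genes that resembled each other most by rank were Tsc22d3 with Klf9 and Mt1 with Mt2. Klf9 ranked 237 among the 12102 other tested genes by closeness to Tsc22d3, and Mt2 ranked 258 by closeness to Mt1. Fkbp5 ranked 756 by closeness to Nr3c1. A rank depends on the gene it starts from, and Tsc22d3 ranked 625 by closeness to Klf9. By distance the closest pair was instead Fkbp5 with Nr3c1, at 0.193, followed by Tsc22d3 with Klf9, at 0.200. The Mt1 to Mt2 distance of 0.305 was wider than that of Mt1 to its nearest genes, and the deviation in mouse WT-139 was 0.42 for Mt2 and -0.08 for Mt1.

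Other known targets of the receptor were described from a list of 28 genes, of which 25 were tested. Limma called 0 higher and 0 lower (0% of all genes). Log2 differences were positive for 8 and negative for 17, with a median of -0.21, and genotypes did not overlap for 2 higher and 5 lower, against 19% and 14.7% of all tested genes. Without mouse WT-139 the median was -0.03, with 11 positive and 13 negative. Gadd45b, a stress-induced signalling protein, was at 587 and 299 FPKM with Usp25 and at 179 and 167 FPKM without it, a log2 difference of -1.27 ± 0.44 (SE). Per1, a clock gene with glucocorticoid response elements, was at 46.1 and 29.6 FPKM with Usp25 and at 17.9 and 20.7 FPKM without it. Both had non-overlapping genotypes and kept a negative log2 difference without mouse WT-139, of -0.78 and -0.59, and neither passed limma (adjusted p = 0.968 for each). Errfi1, an inhibitor of the EGF receptor, was at 49.6 and 37.9 FPKM with Usp25 and at 117 and 55.1 FPKM without it. Anxa1, the glucocorticoid-induced annexin, was at 842 and 506 FPKM with Usp25 and at 1624 and 759 FPKM without it. Its highest value was in mouse KO-826, as for Mt1 and Mt2. Of the 25 tested genes of the list, 6 were highest in mouse KO-826 and 13 in mouse WT-139. Over all tested genes the shares were 25.5% and 29.7% in that order. Lcn2, also a neutrophil granule gene, reached 5537 FPKM in mouse WT-139 and stood between 82.8 and 105 FPKM in the other mice.

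The receptor's chaperones and coregulators were measured in full, 20 of 20 genes, and limma called 0 higher and 0 lower. Log2 differences were positive for 13 and negative for 7, with a median of 0.08, and genotypes did not overlap for 7 higher and 1 lower, beside 19% and 14.7% of all tested genes, of which 53.6% were positive. Without mouse WT-139 the list had 15 positive and 4 negative among 19 tested, with a median of 0.16. Fkbp4, the co-chaperone that Fkbp5 competes with, was at 27.2 and 38.7 FPKM with Usp25 and at 84.4 and 46.0 FPKM without it, a log2 difference of 0.92 ± 0.41 (SE, limma adjusted p = 0.968). Ppid, the cyclophilin of the same complex, was at 10.3 and 11.1 FPKM with Usp25 and at 17.5 and 17.4 FPKM without it. Hsp90ab1, the chaperone that holds the receptor, was at 316 and 391 FPKM with Usp25 and at 489 and 464 FPKM without it. The Usp25-/- values were the higher ones for each of these 3 genes, and the log2 differences stayed positive without mouse WT-139, at 0.67, 0.61 and 0.28. These 3 are chaperones or co-chaperones, and the negative log2 differences of the list with all mice were mostly those of coregulators.

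Several genes for making steroid hormone from cholesterol were near or at 0. Of 15 genes of steroid synthesis and conversion, 9 stayed below 1 FPKM in all 4 mice and 5 were tested, with 0 called by limma in either direction. The genes Cyp11a1 and Hsd3b1, for the first steps from cholesterol, were listed at 0 in each mouse. Cyp11b1, for the last step to corticosterone, was above 0 in mouse WT-139 alone at 0.248 FPKM. The library of that mouse had the fewest genes listed at 0, and the part of this in the Cyp11b1 value was not tested. Cyp21a1, also of this list, was among those tested, at 1.52 and 0.257 FPKM with Usp25 and at 1.74 and 1.08 FPKM without it. Srd5a1, which reduces steroids, was at 16.5 and 4.26 FPKM with Usp25 and at 28.0 and 8.53 FPKM without it. The genotypes overlapped for it, and mice WT-139 and KO-826 were the higher ones.

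Zinc transporters, the metal sensor Mtf1 and antioxidant genes formed a list of 23, of which 21 were tested and 0 called by limma in either direction. Log2 differences were positive for 12 and negative for 9, with a median of 0.19, and genotypes did not overlap for 7 higher and 3 lower, where all tested genes gave 19% and 14.7%. Leaving out mouse WT-139 gave 15 positive and 6 negative, with a median of 0.20. Gclc, the catalytic subunit for glutathione synthesis, was at 69.3 and 66.5 FPKM with Usp25 and at 206 and 110.5 FPKM without it, a log2 difference of 1.14 ± 0.40 (SE, limma adjusted p = 0.968) and of 1.17 without mouse WT-139. Slc30a1, the zinc exporter that MTF1 induces together with the metallothioneins, was at 2.56 and 3.35 FPKM with Usp25 and at 5.97 and 4.44 FPKM without it. Slc39a4, a zinc importer of the gut, was at 28.4 and 17.4 FPKM with Usp25 and at 37.2 and 33.2 FPKM without it. For these 3 genes mouse KO-826 was the highest, as it was for Mt1 and Mt2. Of the 21 tested genes of the list, 9 were highest in mouse WT-139, 3 in WT-140, 7 in KO-826 and 2 in KO-850. Over all tested genes the shares were 29.7%, 27.2%, 25.5% and 17.6% in that order.

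Targets of p53 and inhibitors of the cell cycle, the company of Cdkn1a, were tested in 23 of 23 cases, with 0 called by limma in either direction. Log2 differences were positive for 12 and negative for 11, with a median of 0.05, and genotypes did not overlap for 0 higher and 4 lower, the shares over all tested genes being 19% and 14.7%. Without mouse WT-139 the balance turned to 9 positive and 14 negative, with a median of -0.07, while the median over all genes tested in that fit was -0.01. Plk2, a kinase induced by p53, was at 105 and 53.5 FPKM with Usp25 and at 29.5 and 47.1 FPKM without it, and Btg2, an antiproliferative factor, at 220.5 and 95.1 FPKM with Usp25 and at 86.9 and 90.8 FPKM without it. The Btg2 log2 difference shrank from -0.70 to -0.10 without mouse WT-139. Gdf15, a stress cytokine, was at 85.0 and 391 FPKM with Usp25 and at 299.6 and 201 FPKM without it, so the genotypes overlapped.

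**Figure D4:**
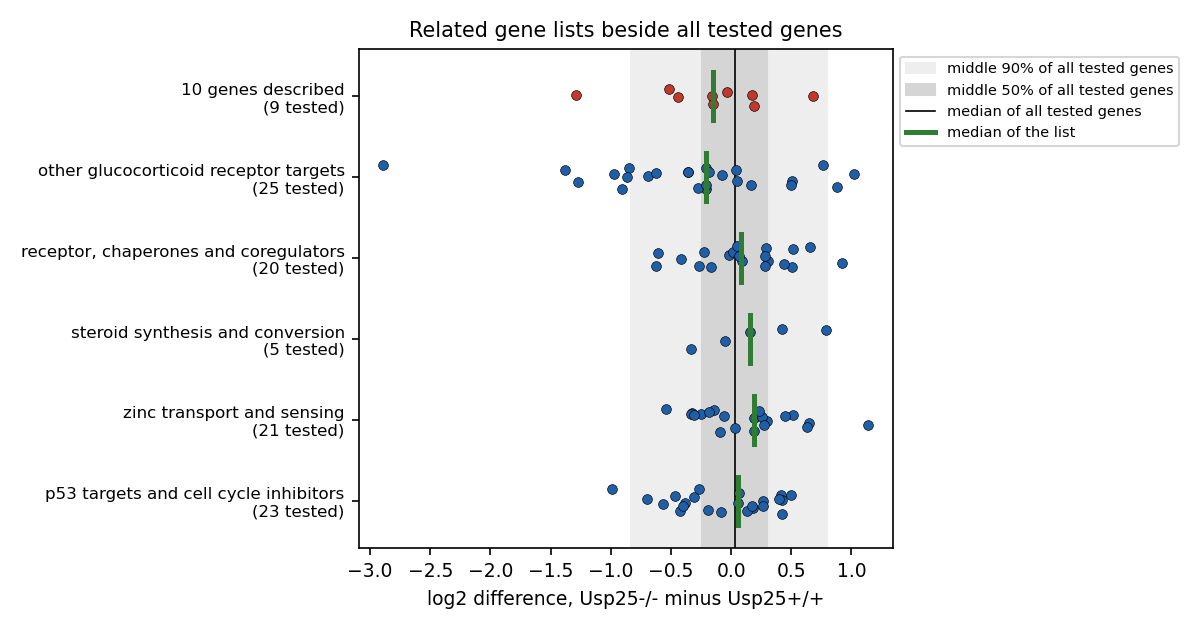
Difference between genotypes on the log2(FPKM + 1) scale, Usp25-/- minus Usp25+/+, on the horizontal axis for each tested gene of the described set and of the related lists on the vertical axis, with grey bands for the middle of all tested genes and a green line for each list's median. List medians lie between -0.21 and 0.19, and Lcn2 is the point farthest to the left.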

How the data were processed

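PolyA RNA of 4 DSS-treated mice, 2 of each Usp25 genotype, had been sequenced. The deposited table holds FPKM values computed by the authors, 1 column for each mouse. Per the submitters' processing notes, Bowtie 0.12.2 and mm9 were used, and no quantifier, annotation, strandedness or read length is given in the sources used here. Columns summed to between 526652 and 565645 FPKM, read totals are unknown, and no counting interval was given.

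Symbols altered to dates (27) were left out, leaving 24394 genes. The 12103 genes at 1 FPKM or more in at least 2 mice entered the test on the log2(FPKM + 1) scale, on which changes of low genes come out too small. The genotypes were compared by limma 3.58.1 (R 4.3.3) with a mean-variance trend, two-sided, with Benjamini-Hochberg adjustment over all tested genes. The code was tested on simulated data. P-values reflect the spread among these 4 mice and no others, with each gene's variance drawn toward a trend over all tested genes. Members and lists were chosen with earlier results of these data known. Named genes were all members, Usp25, and in each related list the 4 with the smallest p and 2 with the highest mean, with the 2 nearest genes in pattern for each tested member; a gene named by this rule is not reported here. Hsd11b2, Mt3, Mt4, Cyp11a1, Cyp11b1 and Hsd3b1 were chosen after their values were seen, for their role. Marker lists for macrophages and lymphocytes were also measured, with summed levels of 7347 to 10721 FPKM and 18.7 to 79.4 FPKM. Positions come from Gencode for mm9, and plots were made in Python 3.11.15 with matplotlib 3.10.9. Alternatives covered the pseudocount, filter, scaling, variance model and each mouse left out.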

Additional observations from a re-analysis of the deposited data

How the results depend on the processing

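The set gave 0 calls by limma under each alternative of pseudocount, filter, scaling and variance model, and all 9 tested genes kept their direction in these. Leaving out 1 mouse was the alternative that changed results. The number of genes called in the whole table then ran from 0 to 163, the latter without mouse WT-140, and the number called in the set from 0 to 1, the 1 being Hsd11b1. The number of tested genes with a positive difference ran from 3 to 4, the number without overlap from 2 to 7, and their median log2 difference from -0.37 to -0.03. Over all tested genes the share without overlap also rose, from 33.7% with all 4 mice to between 52.9% and 80.9% in those fits. Log2 differences of single genes over the 4 such fits ran from -0.60 to 0.28 for Fkbp5, from -0.19 to 0.53 for Sgk1, from -0.49 to 0.19 for Klf9, from -0.43 to 0.80 for Mt2 and from -0.33 to 0.27 for Cdkn1a, and these changed sign. They ran from -2.16 to -0.43 for Hsd11b1, from -0.85 to -0.03 for Nr3c1, from -0.94 to -0.09 for Tsc22d3, from 0.02 to 1.34 for Mt1 and from -3.65 to -2.49 for Usp25, with no change of sign. A genotype left with 1 mouse is assumed to vary like the other. The cause of these shifts was not tested. No paired analysis was possible because the labels give no litter or pairing of the mice. Depth is unknown and 2 mice a group leave wide intervals.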
